A study of Mus musculus with 2 samples.

Results

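The genes described here encode the protein subunits of the mitochondrial ribosome, and they were measured in CD11b-positive mouse cells without interferon regulatory factor 8 (IRF8) and in wt cells. They were chosen by name, as every gene whose deposited symbol began with Mrpl or Mrps followed by a digit, which gave 45 genes with 47 probes among the 7976 genes (9143 probes) of the deposited table. The samples were 2 dual-colour arrays, each carrying RNA of IRF8 KO cells labelled with Cy3 and RNA of wt cells labelled with Cy5. All cells were primary and untreated, and CD11b (integrin alpha M, gene Itgam) is a surface protein of myeloid cells. The sources used here do not give the strain, age, sex, tissue, the IRF8 allele, the way the cells were selected or how many animals gave RNA, and the series calls the arrays biological replicates; p-values measure the spread between these arrays only. No dye was exchanged between arrays, so an effect of genotype and an effect of dye cannot be told apart.

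The mitochondrial ribosome translates the few messenger RNAs made from mitochondrial DNA, all of which encode subunits of the respiratory chain and ATP synthase. Its RNAs come from mitochondrial DNA, while its proteins are encoded in the nucleus, made in the cytosol and imported. The large subunit forms peptide bonds and the small subunit reads the messenger RNA. Some of the proteins have a counterpart in bacterial ribosomes and others are specific to mitochondria. IRF8 is a transcription factor that directs the development of monocytes and dendritic cells, and its loss in mice is known for an excess of granulocytes.

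Of the 45 genes, 29 (64.4%) were listed on both arrays, 15 on replicate 2 only and 1 on replicate 1 only. Over all genes the share on both arrays was 65.1%. Per the file headers a spot was kept where both channels gave a signal of at least 100, and the lowest listed signal was 451 on replicate 1 and 508 on replicate 2. Of the 45 genes, 27 belong to the large subunit, 17 to the small subunit, and Mrps36, despite its name, encodes a subunit of the 2-oxoglutarate dehydrogenase complex. Mrps18a and Mrps30 are counted with the large subunit, where their proteins sit. The probes lay on 17 chromosomes, with 43 genes having a deposited probe position. Of the probes with a deposited count of matching gene IDs, 0 matched several, and the highest signal of the 47 probes was 18013.

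Median raw signals over all probes were 1755 in KO and 1652 in wt on replicate 1, and 2584 in KO and 2448 in wt on replicate 2. All ratios below are log2 ratios of KO over wt as normalized by the authors, with n = 2 arrays and the SD over them. The median ratio over the 5192 genes on both arrays was 0.03 on replicate 1 and -0.42 on replicate 2, so a member near -0.42 on replicate 2 lay at the middle of these genes. Over all probes listed on replicate 2, those not listed on replicate 1 included, the median was -0.31, and centring used that median. On replicate 2 the authors' normalization lowered each KO over wt ratio by 0.392, and on replicate 1 by 0.026, so that similar raw signals on replicate 2 give a ratio below 0. Irf8 had 0 probes under its name, and the genotype has no check from the targeted gene. Itgam was present in both genotypes, with a signal of 7883 in KO and 1862 in wt on replicate 1 and of 15036 in KO and 3527 in wt on replicate 2. It rose by 1.88 ± 0.25 in KO.

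Of the 29 mitochondrial ribosomal protein genes, 22 lay within 0.5 of the median of the 5192 genes on each array, and 1 passed the test. That gene was Mrpl52, a protein of the large subunit specific to mitochondria, which fell 2.60-fold in KO. The other 28 had adjusted p-values from 0.332 to 0.939 (limma, Benjamini-Hochberg over all 5192 genes). Limma called 323 of the 5192 genes, 6.22%, with 3.41% lower and 2.81% higher in KO. A single call among 29 is near that background and is no result about the family. In bulk RNA, fewer cells of a type and less RNA per cell cannot be told apart.

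Mrpl52 gave a signal of 5536 in KO and 15053 in wt on replicate 1. On replicate 2 its signals were 9648 in KO and 18013 in wt. The KO signal lay below the wt signal on both arrays, and the deposited ratios were -1.47 and -1.29. They were further apart after centring (-1.47 and -0.99) and with loess (-1.56 and -0.74). The mean of the deposited ratios was -1.38 ± 0.12 (SD), with a standard error of 0.40. Its 95% interval ran from -2.16 to -0.60, with an adjusted p of 0.0132 by limma. Mrpl52 ranked 103 from the lowest of the 5192 genes. Its probe lies on chromosome 14 of mouse build 37, from 55048504 to 55048574, near the end of the RefSeq transcript that the deposited annotation places from 55045745 to 55048587. The call ended after each array was centred on its median (mean -1.23, limma adjusted p = 0.0505) and with an intensity trend in limma's variance (adjusted p = 0.148). With an ordinary t statistic the adjusted p was 0.766, and with loess within arrays the call held (mean -1.15, limma adjusted p = 0.0058). Over all genes limma called 4.60% after centring (1.52% lower) and 12.7% with loess (5.34% lower).

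A rule of size asked for a 2-fold change, in a common direction, on each array. Mrpl52 was the single member to meet it, while 2.75% of all genes were lower and 2.16% higher by it. After centring 0 members met the rule (1.60% of all genes were lower), as the replicate 2 value of Mrpl52 became -0.99. With loess 0 members met it (1.12% of all genes were lower).

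The promoter windows of Mrpl52, of Mrpl42, the third lowest member, and of Mrpl33, the highest, are shown. These genes mark the ends and the lower flank of the family's range. No window was found for Mrpl38, the second lowest member. Each window runs from 250 bases before to 50 bases after the gene's start in RefSeq, build GRCm38.p6, and is read 5′ to 3′ on the gene's strand. The Mrpl52 window is chr14:54426659-54426958 (+), that of Mrpl42 is chr10:95501900-95502199 (-) and that of Mrpl33 is chr5:31613701-31614000 (+). Capitals mark matches to the motifs named below, read on the opposite strand where they appear as CTTCCGG.
Mrpl52: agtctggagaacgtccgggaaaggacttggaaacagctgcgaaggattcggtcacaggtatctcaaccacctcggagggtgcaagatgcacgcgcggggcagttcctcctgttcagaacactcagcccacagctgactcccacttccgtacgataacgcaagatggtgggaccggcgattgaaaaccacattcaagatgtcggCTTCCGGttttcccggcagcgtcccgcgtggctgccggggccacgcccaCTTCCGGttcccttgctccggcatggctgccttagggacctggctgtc
Mrpl42: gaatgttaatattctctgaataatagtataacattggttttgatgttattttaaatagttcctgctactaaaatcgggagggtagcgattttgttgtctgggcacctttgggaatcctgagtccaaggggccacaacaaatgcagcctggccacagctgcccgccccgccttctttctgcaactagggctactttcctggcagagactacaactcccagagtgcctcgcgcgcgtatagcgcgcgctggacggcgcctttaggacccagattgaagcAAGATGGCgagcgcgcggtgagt
Mrpl33: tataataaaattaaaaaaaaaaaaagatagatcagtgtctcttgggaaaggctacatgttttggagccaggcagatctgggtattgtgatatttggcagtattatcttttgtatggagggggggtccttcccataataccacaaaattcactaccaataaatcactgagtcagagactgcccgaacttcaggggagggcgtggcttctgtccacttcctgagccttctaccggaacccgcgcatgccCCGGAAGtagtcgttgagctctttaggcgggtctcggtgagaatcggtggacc

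Letters were searched on both strands of 44 windows found for 41 of the 45 genes. The ETS family core CCGGAAG, bound by factors such as GABP, was in windows of 13 of the 41 genes (31.7%), against 9.93% of all 27025 genes and 12.9% of 17492 protein-coding genes. The YY1 core AAGATGGC was in those of 10 genes (24.4%), against 3.19% of all genes and 3.57% of protein-coding genes. A nuclear respiratory factor 1 site was in those of Mrpl32 and Mrpl39 (4.88%), against 1.07% of all genes and 1.47% of protein-coding genes. An IRF-type site was in those of Mrpl20, Mrps18c and Mrps21 (7.32%), against 3.99% of all genes and 3.94% of protein-coding genes. CCGGAAG and AAGATGGC can share the letters AAG and were counted separately. Mrpl52 held the ETS core in 2 places and Mrpl33 in 1, so the lowest and the highest member carried the same letters. A match is a description of letters, and no binding was measured.

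**Figure D1:**
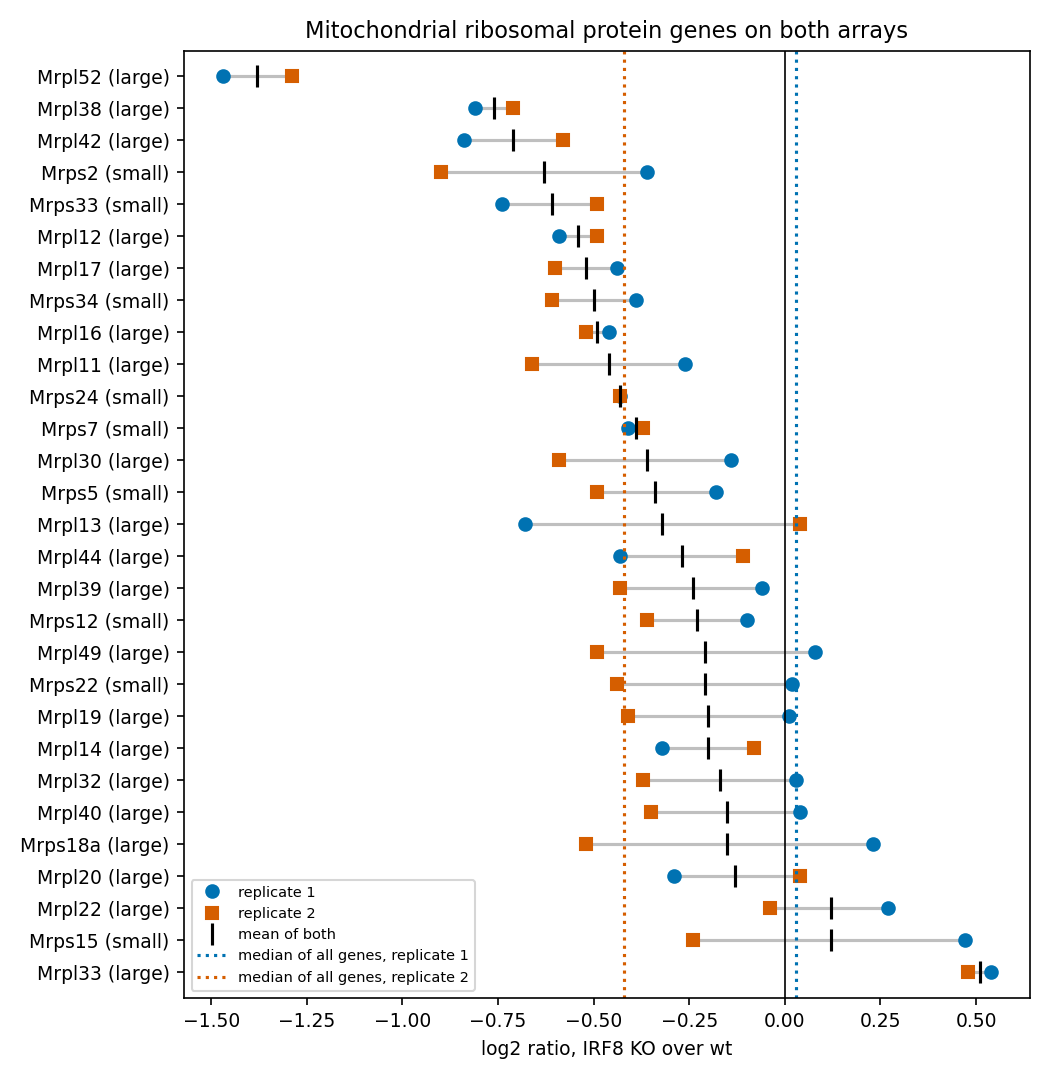
The log2 ratio of IRF8 KO over wt (horizontal axis) of each of the 29 genes on both arrays, ordered by mean, with circles for replicate 1, squares for replicate 2 and a tick for the mean. Mrpl52 stands apart at -1.47 and -1.29, Mrpl33 is the highest at 0.54 and 0.48, and the dotted lines mark the medians of all genes (0.03 and -0.42).

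Among large subunit proteins, Mrpl38 and Mrpl42 followed Mrpl52, and both are specific to mitochondria. Mrpl38 gave signals of 894 in KO and 1535 in wt on replicate 1, and of 1730 in KO and 2155 in wt on replicate 2. Mrpl42 gave 3371 in KO and 5940 in wt on replicate 1, and 5456 in KO and 6224 in wt on replicate 2. For both genes the KO signal was the lower on each array. The mean was -0.76 ± 0.07 for Mrpl38 (limma adjusted p = 0.332) and -0.71 ± 0.18 for Mrpl42 (limma adjusted p = 0.384). Their 95% intervals, from -1.54 to 0.02 and from -1.49 to 0.07, leave room for a fall of 2-fold or more.

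Mrpl12, whose protein forms the stalk that recruits translation factors, gave 3071 in KO and 4545 in wt on replicate 1 and 6169 in KO and 6612 in wt on replicate 2. Its mean was -0.54 ± 0.07. Mrpl17, with a bacterial counterpart in the large subunit, gave 1543 in KO and 2049 in wt on replicate 1 and 1862 in KO and 2152 in wt on replicate 2, with a mean of -0.52 ± 0.12. Neither passed the test. Their ratios on replicate 2 were -0.49 and -0.60, and -0.19 and -0.30 after centring.

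At the other end of the large subunit stood Mrpl33, also with a bacterial counterpart. It gave 1758 in KO and 1191 in wt on replicate 1, and 6636 in KO and 3634 in wt on replicate 2. As deposited, it was the single member above 0 on both arrays (0.54 and 0.48). Its mean was 0.51 ± 0.04, with an adjusted p of 0.618 by limma. Over all genes 15.6% were above 0 on both arrays. After centring 3 members were above 0 on both arrays, and with loess 3, against 1401 and 1692 of all 5192 genes. The mean of Mrpl33 was 0.66 after centring (limma adjusted p = 0.257) and 0.74 after loess (limma adjusted p = 0.0777). It was not called under either scaling.

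Mrpl22, whose protein lines the exit tunnel, gave 1364 in KO and 1109 in wt on replicate 1 and 2847 in KO and 2229 in wt on replicate 2, a mean of 0.12 ± 0.22. Mrpl20 gave 1361 in KO and 1637 in wt on replicate 1 and 3928 in KO and 2911 in wt on replicate 2, a mean of -0.13 ± 0.24. Mrpl40, specific to mitochondria, gave 1035 in KO and 986 in wt on replicate 1 and 2331 in KO and 2265 in wt on replicate 2, a mean of -0.15 ± 0.28. Each of these means is smaller in size than the SD between the arrays, which includes the shift of all genes between them. After centring, Mrpl22 stood at 0.27 on both arrays and was not called (limma adjusted p = 0.685). Mrpl20 stood at -0.29 and 0.35 after centring, and Mrpl40 at 0.04 and -0.05. The means of Mrpl20 and Mrpl40 turned to 0.07 and 0.05 with loess.

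By deposited ratio the arrays disagreed most for Mrps18a, Mrpl13, Mrps15 and Mrpl49, with the shift of all genes between the arrays included. After centring, replicates 1 and 2 gave 0.22 and -0.21 for Mrps18a, 0.47 and 0.06 for Mrps15, and 0.08 and -0.19 for Mrpl49. Widest apart after centring were Mrpl13 at -0.68 and 0.34, Mrpl20 at -0.29 and 0.35, and Mrpl44 at -0.43 and 0.20. Mrps18a gave 2751 in KO and 2311 in wt on replicate 1 and 4618 in KO and 5034 in wt on replicate 2, hence 0.23 and -0.52. Mrpl13 gave 733 in KO and 1153 in wt on replicate 1 and 2258 in KO and 1679 in wt on replicate 2, hence -0.68 and 0.04. The direction of both genes depended on the array. Mrpl49 had 2 probes that behaved alike, with -0.02 and 0.17 on replicate 1 and -0.54 and -0.44 on replicate 2. The first Mrpl49 probe gave 1915 in KO and 1901 in wt on replicate 1 and 3614 in KO and 4014 in wt on replicate 2. Its second probe gave 3152 in KO and 2744 in wt on replicate 1 and 7743 in KO and 8002 in wt on replicate 2. The largest gap between the arrays among members was 0.74 by deposited ratio. The median SD over members was 0.22, against 0.38 over all genes.

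The other 8 large subunit genes on both arrays lay between -0.49 and -0.17. They were Mrpl16 at -0.49 ± 0.04, Mrpl11, a protein of the stalk base, at -0.46 ± 0.28, Mrpl30 at -0.36 ± 0.32, Mrpl44 at -0.27 ± 0.23, Mrpl39 at -0.24 ± 0.26, Mrpl19 at -0.20 ± 0.30, Mrpl14 at -0.20 ± 0.16 and Mrpl32 at -0.17 ± 0.28. Mrpl32 is matured by the m-AAA protease of the inner membrane. All 8 means lay within 0.3 of the median of -0.21 over all genes.

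Limma called 0 of the 9 small subunit genes on both arrays, and 0 had an unadjusted p under 0.05; their means ran from -0.63 to 0.12. Mrps2, the lowest, gave 884 in KO and 1112 in wt on replicate 1 and 1525 in KO and 2170 in wt on replicate 2, a mean of -0.63 ± 0.38 (limma adjusted p = 0.477). Mrps33, specific to mitochondria, gave 547 in KO and 899 in wt on replicate 1 and 1665 in KO and 1778 in wt on replicate 2, a mean of -0.61 ± 0.18. Mrps34, also specific to mitochondria, gave 2193 in KO and 2823 in wt on replicate 1 and 3663 in KO and 4268 in wt on replicate 2, a mean of -0.50 ± 0.16. In these 3 genes the KO signal was the lower on each array.

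Mrps24 had nearly the same ratio on both arrays (-0.43 and -0.43), from 1078 in KO and 1422 in wt on replicate 1 and 2321 in KO and 2390 in wt on replicate 2. Mrps7 gave 495 in KO and 645 in wt on replicate 1 and 1119 in KO and 1100 in wt on replicate 2, a mean of -0.39 ± 0.03. Mrps5 gave 2009 in KO and 2243 in wt on replicate 1 and 4717 in KO and 5034 in wt on replicate 2, a mean of -0.34 ± 0.21. All of these have bacterial counterparts. Their replicate 2 ratios after centring were -0.13 for Mrps24, -0.06 for Mrps7 and -0.18 for Mrps5.

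Mrps12, a protein of the decoding centre, gave 1749 in KO and 1836 in wt on replicate 1 and 3466 in KO and 3395 in wt on replicate 2, a mean of -0.23 ± 0.19. A second Mrps12 probe, listed on replicate 2 only, stood at -0.30 beside -0.36 for the first. Mrps22, specific to mitochondria, gave 1247 in KO and 1212 in wt on replicate 1 and 2283 in KO and 2354 in wt on replicate 2, a mean of -0.21 ± 0.32. Mrps15 gave 1000 in KO and 708 in wt on replicate 1 and 1362 in KO and 1227 in wt on replicate 2, hence 0.47 and -0.24. It was the highest small subunit gene, and its KO signal was the higher on both arrays. The sign on replicate 2 depended on the scaling, with 0.06 after centring and -0.11 with loess.

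The ranges of the subunits overlapped. The median of the mean ratios was -0.39 over the 9 small subunit genes and -0.26 over the 20 large subunit genes. It was -0.27 over the 11 proteins specific to mitochondria and -0.33 over the 18 with a bacterial counterpart. The ranges were -0.63 to 0.12 for the small and -1.38 to 0.51 for the large subunit, and no difference between these groups was tested.

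As a family, the 29 genes had a median of -0.29 on replicate 1 and -0.44 on replicate 2, against 0.03 and -0.42 over all genes. On replicate 1 the median thus lay below that of all genes, and on replicate 2 it did not stand apart. Of the 29 genes, 18 were below 0 on both arrays, against 43.7% of all genes, and 10 had opposite signs, against 40.6%. After centring, 16 of 29 were below 0 on both arrays, against 35.2%, and with loess 13 of 29, against 32.2%. The members varied little among themselves, with an SD over genes of 0.42 on replicate 1 and 0.32 on replicate 2, where all genes had 0.75 and 0.60. Within 0.5 of the median of the 5192 genes on both arrays were 22 of 29 members (75.9%) and 46.0% of all genes.

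Limma gave each gene the same standard error of 0.40, so a 95% interval spans 0.78 on either side of the mean. The interval lay inside 2-fold in both directions for 10 of the 29 members. It reached a 2-fold fall for 18 members and a 2-fold rise for 1. The median over all genes was -0.21, and an interval around that value nearly reaches a 2-fold fall. These counts thus include the shift of all genes, and the share over all genes is not given here. Between the arrays, the members' ratios had a Pearson r of 0.57 and a Spearman rho of 0.45 (n = 29 genes), and all genes had 0.54 and 0.42. Without Mrpl52 and Mrpl33 the members' r was 0.22 (n = 27). Genes are not independent replicates, and both arrays share their dyes.

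**Figure D2:**
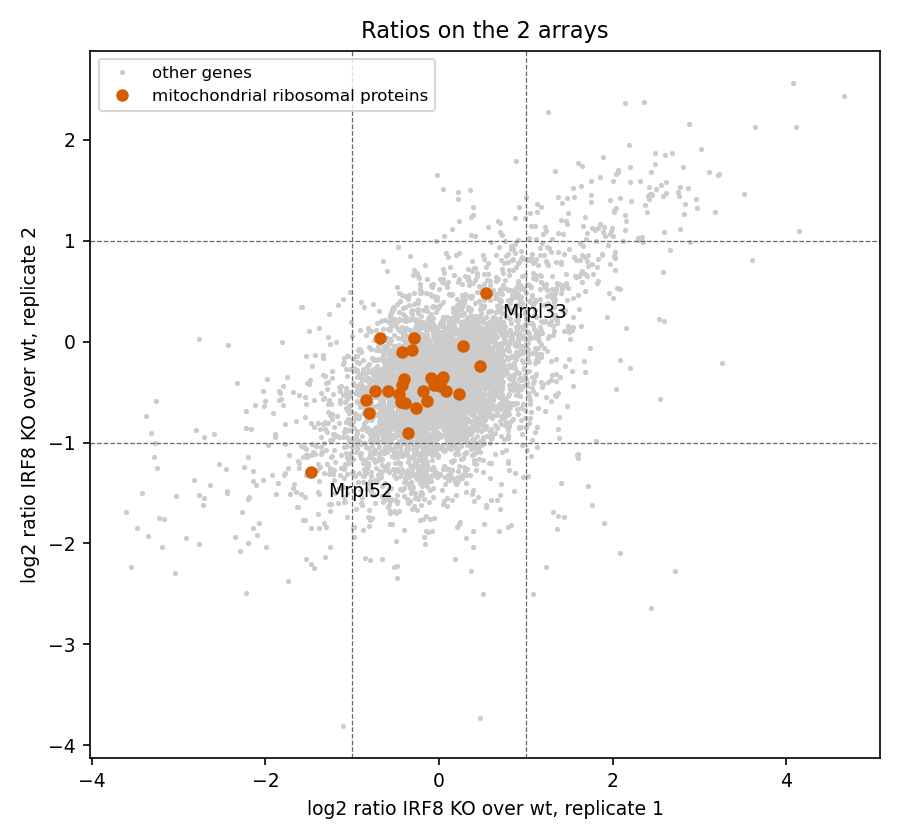
The log2 ratio of IRF8 KO over wt of each of 5192 genes on replicate 1 (horizontal axis) and replicate 2 (vertical axis), with the 29 mitochondrial ribosomal protein genes in colour and dashed lines at 2-fold. The members sit in the centre of the cloud except Mrpl52, which is 2-fold lower on both arrays.

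Another 15 genes were listed on replicate 2 only and have no replicate. Their values are those of 1 array, with no test. Mrps27, a protein with a pentatricopeptide repeat fold, was the highest, with a signal of 1463 in KO and 680 in wt and a ratio of 0.71. Mrps21 gave 1664 in KO and 812 in wt (0.64), and Mrps25 gave 1139 in KO and 609 in wt (0.51). The small subunit genes Mrps10 (0.39), Mrps17 (0.39), Mrps18c (0.33) and Mrps11 (0.24) were also above 0, and Mrps31 was below it (-0.37). Of the large subunit, Mrpl10, a stalk protein, stood at 0.36 and Mrpl51 at 0.35, while Mrpl48 (-0.05), Mrpl24 (-0.06), Mrps30 (-0.06) and Mrpl28 (-0.12) lay near 0. Mrps36 was the lowest at -0.64, from 2770 in KO and 3298 in wt. Mrpl36 was listed on replicate 1 only, at -0.26, from 949 in KO and 1114 in wt.

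None of these reached 2-fold (0 of 16 probes on replicate 2, against 323 of all 3024 probes listed on replicate 2 only). The median of the 16 member probes on replicate 2 only, the second Mrps12 probe among them, was 0.28, against -0.06 for all 3024 probes listed on replicate 2 only. The members on both arrays had -0.44 on the same array. The 16 probes had median signals of 1495 in KO and 1084.5 in wt. Member probes on both arrays were brighter, with 3349.5 in KO and 3181.5 in wt. All 3024 probes listed on replicate 2 only were also dim, with 1513.5 in KO and 1226.5 in wt. The part of brightness in the median of 0.28 was not tested. The median ratio over all probes of replicate 2 was 0.22 where the geometric mean of both signals was under 1000, -0.17 from 1000 to 2000, and -0.51 at 8000 or more. With loess, which takes this dependence out, the median of the 16 probes was 0.16, with 12 of 16 above 0, against 0.03 and 53.1% for all probes listed on replicate 2 only.

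**Figure D3:**
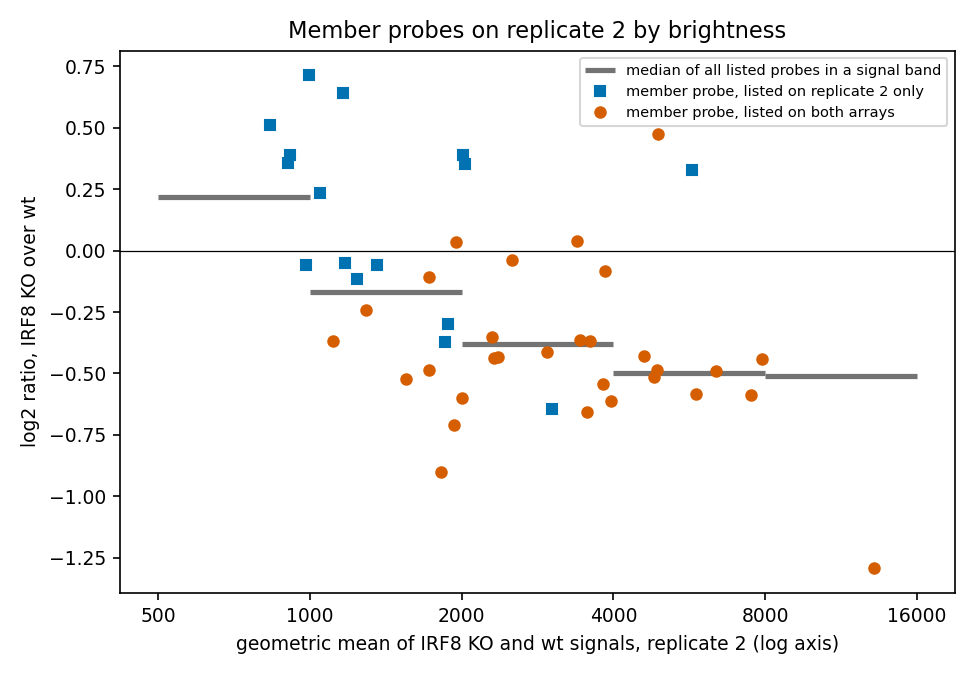
The log2 ratio of IRF8 KO over wt on replicate 2 (vertical axis) of each member probe against the geometric mean of its KO and wt signals (horizontal log axis), with grey bars for the median of all probes in 5 signal bands, the outer bands being open-ended. Probes listed on replicate 2 only (squares) are mostly dim and lie higher than those on both arrays (circles), as do dim probes in general.

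As deposited, 8 further lists of mitochondrial genes gave no call. They cover translation and ribosome assembly, and also DNA expression, protein import, quality control and nuclear regulators. Of their 128 genes, 35 were on both arrays and 0 passed limma in either direction. Of these 35 genes, 3 (Rbfa, Polrmt and Phb) had an unadjusted p under 0.05 by limma. Over all genes 6.22% passed limma, and 839 of 5192 had an unadjusted p under 0.05, so these counts do not stand above the background. Among ribosomal proteins with other names, Aurkaip1 stood at 0.21 ± 0.19 and Chchd1 at -0.23 ± 0.29. Of 4 translation factors, Gfm2, a ribosome recycling factor, stood at -0.44 ± 0.22, and Oxa1l, which inserts new proteins into the inner membrane, at -0.28 ± 0.34. Of 4 tRNA synthetases, Wars2 stood at -0.61 ± 0.33 and Rars2 at -0.57 ± 0.19. All of these were within the range of the ribosomal proteins.

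Of 8 genes of ribosome assembly and rRNA modification, Rbfa, which matures the small subunit, was the highest at 1.07 ± 0.57 (1.47 and 0.67 on replicates 1 and 2, limma adjusted p = 0.0941). It passed with loess (mean 1.25, limma adjusted p = 0.00189). Dhx30, an RNA helicase, was the lowest at -0.73 ± 0.79. Among 5 genes of mitochondrial DNA expression, Polrmt, the mitochondrial RNA polymerase, stood at -0.81 ± 0.87, and Pnpt1, an RNA exonuclease, at -0.72 ± 0.41 (its probe matched several genes).

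Of 6 protein import genes, Tomm70a stood at -0.54 ± 0.04 and Timm23 at -0.40 ± 0.35. Of 2 quality control genes, Phb, a scaffold of the inner membrane, stood at -0.81 ± 0.33 and Yme1l1, a protease, at 0.01 ± 0.13. Of 3 nuclear regulators, Myc stood at -0.52 ± 1.86, with 0.80 and -1.84 on the arrays, and Esrra at -0.16 ± 0.40. The direction of Myc depended on the array.

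The RNA core of the large subunit was also on the arrays, as mt-Rnr2, the 16S ribosomal RNA encoded in mitochondrial DNA; it was in no list and was named after its values were seen. It gave 841 in KO and 2054 in wt on replicate 1, and 2031 in KO and 2818 in wt on replicate 2. Its ratios of -1.31 and -0.86 gave a mean of -1.09 ± 0.32 (limma adjusted p = 0.0826). It passed with loess (mean -0.91, limma adjusted p = 0.0315) and not after centring (mean -0.94, limma adjusted p = 0.138). How ribosomal RNA was primed for labelling is not given in the sources used here.

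Beside the mitochondrial ribosome, the cytosolic ribosome and the respiratory chain, here with ATP synthase included, were set for comparison, without a test between families. Of 62 cytosolic ribosomal protein genes, 11 fell (3.41% of all genes fell) and 0 rose, and 59 were below 0 on both arrays (43.7% of all genes), with a median of -0.72 on replicate 1 and -1.07 on replicate 2. Among the calls were Rplp1 (-1.45 ± 0.07), Rpl10a, Rpl13, Rpl35, Rpl21, Rps21, Rpl30, Rps6 and Rps12 (-1.19 ± 0.16). After centring 2 fell (1.52% of all genes), with loess 24 (5.34% of all genes), and with an intensity trend in the variance 0 passed. Many of these probes match several genes, and without such probes 3 calls were left over all lists. Of 46 respiratory chain genes 0 passed limma, and 0 had an unadjusted p under 0.05, while with loess Cox6b2 rose. Their median was 0.01 on replicate 1 and -0.26 on replicate 2, and those with the largest mean in size were Uqcrh at -0.76 ± 0.30 and Sdha at -0.69 ± 0.46. The mitochondrial ribosomal proteins, at -0.29 and -0.44, thus lay between these families on both arrays.

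**Figure D4:**
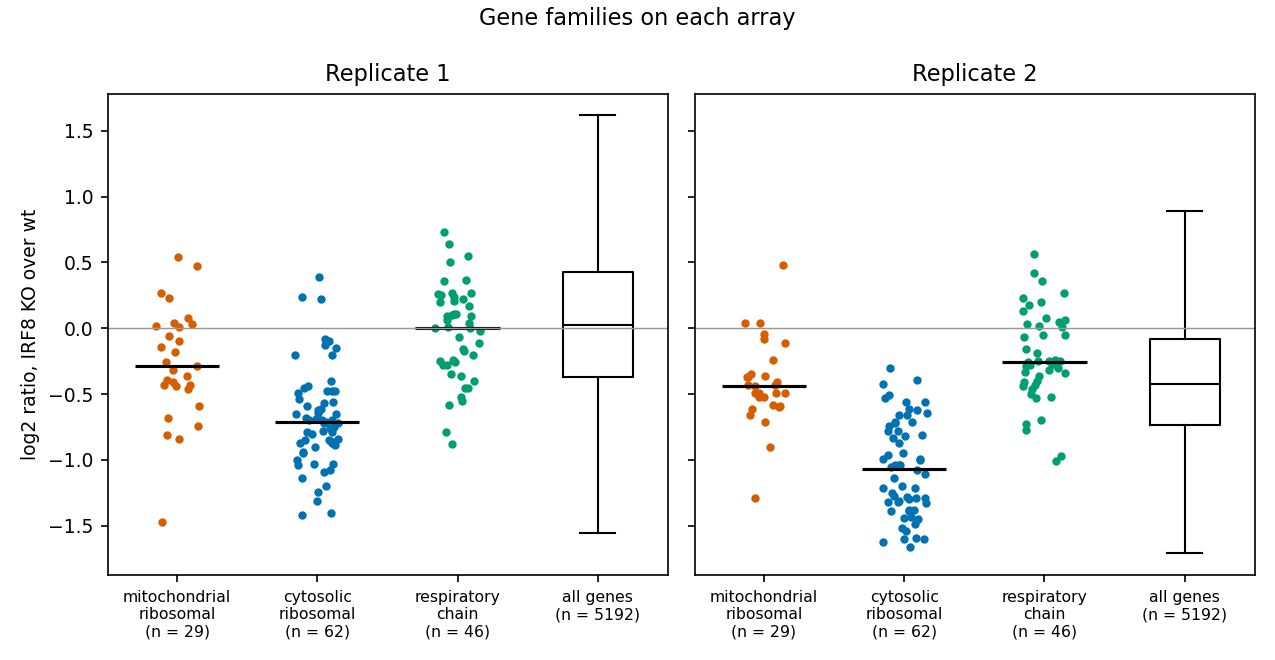
The log2 ratio of IRF8 KO over wt (vertical axis) of single genes (points) of 3 families on replicate 1 (left) and replicate 2 (right), with lines at family medians, and a box for all 5192 genes (median, quartiles, whiskers to 1.5 times the interquartile range, no outliers drawn). The mitochondrial ribosomal proteins (medians -0.29 and -0.44) lie above the cytosolic ones (-0.72 and -1.07) and below the respiratory chain (0.01 and -0.26).

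Markers of other cell types moved on the same arrays. On both arrays were 6 of 12 neutrophil granule and 5 of 11 macrophage markers on the lists. So were 6 of 15 proliferation and 4 of 8 dendritic cell markers. Over all genes limma called 2.81% higher and 3.41% lower. Of 6 neutrophil granule genes 3 rose (Camp, Ngp and Mpo), while Ltf stood at 0.01, Lcn2 at 0.08 and S100a8 at -0.03. Camp, Mpo, Ltf, Lcn2 and S100a8 had a probe with a signal of 60000 or more, as did Csf1r, H2-Ab1 and Cd79a among the other markers. Whether such signals hid a change in Ltf, Lcn2 and S100a8, or limited the sums below, was not tested. Summed signals of the 6 neutrophil granule genes were 333330 in KO and 140837 in wt on replicate 1. On replicate 2 they were 419197 in KO and 254058 in wt. All 5 macrophage genes on both arrays fell. Their sums were 18851 in KO and 146458 in wt on replicate 1, and 20962 in KO and 57857 in wt on replicate 2. Of 6 proliferation genes 4 rose, while Pcna stood at 0.39 ± 0.69 and Rrm1 at -0.06 ± 0.26. Sums of the 6 were 49081 in KO and 20329 in wt on replicate 1, and 75340 in KO and 42176 in wt on replicate 2. Of 4 dendritic cell genes 3 fell (Flt3, H2-Ab1 and Cd74), while Batf3 stood at -0.12 ± 0.60. Sums of the 4 were 19388 in KO and 49519 in wt on replicate 1. On replicate 2 they were 39314 in KO and 86690 in wt. After centring limma called 1 of the 4 lower, H2-Ab1 (1.52% of all genes), and with loess 3 (5.34%). For the rest, limma called 0 of 5 B cell and 0 of 2 erythroid genes (2 of each had an unadjusted p under 0.05), and 0 of 6 T and NK cell markers were listed. The B cell genes differed between the arrays, with 3 of 5 below 0 on replicate 1 and 5 of 5 on replicate 2. Their sums were 73892 in KO and 72515 in wt on replicate 1, and 110747 in KO and 176654 in wt on replicate 2. Erythroid sums were 25294 in KO and 45041 in wt on replicate 1, and 6774 in KO and 12117 in wt on replicate 2. The part of these cell types in the values of Mrpl52 and the other members was not tested.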

How the data were processed

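Expression was measured on 2 dual-colour arrays of IRF8 KO (Cy3) and wt (Cy5) RNA. Per the file headers, the log2 values are Cy5 over Cy3 ratios that the authors normalized at the 50th percentile. The raw intensities are, per the file headers, spot means less the median of the local background. Controls were left out, and a spot was kept where both signals were at least 100 and at least 1 times background, with the strongest spot kept for each well, per the file headers.

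Per the labels' dyes, signs were turned so that KO stands over wt. A deposited value table holds the same ratios with the arrays exchanged; the array names in the larger table were followed, and this affects no mean or test. Probes of a gene were averaged (symbols updated through a RefSeq gene table, which held the Entrez ID of 8370 of 8459 probes with one), which gave 5192 genes. Each gene was tested against 0, two-sided, with limma 3.58.1 (R 4.3.3; lmFit, eBayes), Benjamini-Hochberg adjusted over all genes, threshold 0.05. The prior degrees of freedom were infinite, so that a gene's own spread did not count and a mean of about 1.18 in size passed. The script was tested on simulated data. Alternatives were centring, loess (span 0.3), an intensity trend, an ordinary t statistic, filters on signals under 500 or at 60000 and more, single-gene probes, single probes, and single arrays.

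Every member is accounted for. Both channels' signals are given for members past the threshold and the 5 highest and 5 lowest of each subunit. They are also given for the 4 whose arrays differed most by deposited ratio. From each list, calls are named, otherwise the 2 largest means in size. Some calls among the cytosolic ribosomal proteins are not reported here by name. Members and lists were chosen with earlier results of these data known. The number of arrays limits the precision.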

Additional observations from a re-analysis of the deposited data

How the results depend on the processing

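The count of mitochondrial ribosomal protein genes called was 1 as deposited and with loess, the filters on dim, bright or shared probes and each probe alone. It was 0 after centring (2 members with an unadjusted p under 0.05 by limma), 0 with an intensity trend (4) and 0 with an ordinary t statistic (6). Mrpl52 stood at -1.23 after centring (limma adjusted p = 0.0505), and at -1.38 with the trend (adjusted p = 0.148) and with the ordinary t statistic (adjusted p = 0.766). Members 2-fold on both arrays were 1 as deposited and 0 after centring or with loess; on single arrays there was 1 on each, and after centring 0 on replicate 2 and 1 on replicate 1. The median over members was -0.32 as deposited, -0.17 after centring and -0.13 with loess, where all genes had -0.21, -0.05 and -0.01. Without replicate 1 or replicate 2 it ranged from -0.44 to -0.29, and with centred arrays from -0.29 to -0.13. Over all genes 323 were called (146 higher, 177 lower), 239 after centring (160 higher, 79 lower), 658 with loess (381 higher, 277 lower) and 0 with the ordinary t statistic (302 with an unadjusted p under 0.05). Partner lists had 11 calls as deposited, 2 after centring, 26 with loess, 0 with the trend (31 with an unadjusted p under 0.05), 0 with the ordinary t statistic (16) and 3 without probes matching several genes.

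Near 0 the sign depended on the scaling. After centring and with loess, Mrpl20 stood at 0.03 and 0.07, Mrpl40 at 0 and 0.05, and Mrps18a at 0.01 and 0.06, and Mrpl49 was at 0 with loess. For the changed values the cause was not tested. The median of members listed on replicate 2 only was 0.28 as deposited, 0.59 after centring and 0.16 with loess, alternatives chosen after seeing the data. No paired analysis was possible because the arrays form a single group of ratios. No test was possible on a single array. Of the 45 genes 16 were listed on 1 array only, and 2 arrays of the same dye orientation limit every value.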

Other observations

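The genes up to 3 places from Mrpl52 and Mrpl33 in the RefSeq gene order were also read where a probe was listed. Around Mrpl52, Oxa1l stood at -0.04 and -0.52 on replicates 1 and 2 and Olfr49, an olfactory receptor gene, at 0.40 and -0.31. Slc7a7, an amino acid transporter, stood at -0.56 on replicate 1 only, and Lrp10 at -0.63 on replicate 2 only. Around Mrpl33, Rbks, a ribokinase, stood at 0.28 and -0.29, Slc4a1ap at -0.01 and -0.90 and Babam2 at 0.03 and -0.22. Supt7l stood at 0.98 on replicate 2 only. The 3 probes of Fosl2, an AP-1 transcription factor, stood at 1.85, 1.20 and 1.03 on replicate 1 and at 0.10, -0.01 and 0.46 on replicate 2. These neighbours were chosen after the values of Mrpl52 and Mrpl33 were seen.

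Of the members on both arrays with a promoter window, the 8 with the ETS core had a median ratio of -0.22 (from -1.38 to 0.51) and the 17 without it -0.34 (from -0.71 to 0.12). The 7 with the YY1 core had -0.23 (from -0.71 to -0.15) and the 18 without it -0.30 (from -1.38 to 0.51). The ranges overlap, and no difference by motif was tested.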
